A study of Mus musculus with 9 samples.

Results

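The genes described are 9 members of the neurotrophin pathway and of the CREB machinery that it engages, taken from the deposited table by their gene symbols: the ligands Bdnf and Ntf3, the receptors Ntrk2, Ntrk3 and Ngfr, the sorting receptor Sort1, the transcription factor Creb1 and its coactivators Crebbp and Crtc1. Each symbol matched 1 entry, and all 9 passed the filter on low counts, among 17967 genes tested of 57010 in the table. RNA came from hippocampal tissue of C57BL/6J mice in 3 groups of 3 libraries. CBD mice had a spinal nerve ligated and then received cannabidiol, a non-intoxicating cannabinoid, by intraperitoneal injection at 5 mg/kg for 15 days. SNL mice had the same ligation, used to model neuropathic pain, followed by solvent. Sham mice had the nerve located but left untied, and solvent. The labels give neither sex nor age, and nothing in them states that each library is a different animal. The p-values therefore measure the spread among these libraries, which could be technical.

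Neurotrophins are secreted growth factors that keep neurons alive and adjust the strength of synapses. Brain-derived neurotrophic factor, made from Bdnf, acts mainly through the receptor tyrosine kinase TrkB (Ntrk2), and neurotrophin-3, made from Ntf3, mainly through TrkC (Ntrk3). Both can also bind the shared low-affinity receptor encoded by Ngfr, for which sortilin (Sort1) serves as a partner in binding uncleaved proneurotrophins, besides steering BDNF within the cell. Trk signalling leads through kinases to phosphorylation of CREB (Creb1), which then recruits the acetyltransferase CBP (Crebbp), while the coactivator Crtc1 enters the nucleus of active neurons and binds CREB as well. In the hippocampus Bdnf is itself a CREB target, with several promoters that each lead a transcript of their own.

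The reference promoters of the members were searched for the element that CREB binds. RefSeq windows of 300 bases, from 250 before to 50 after an annotated start, were at hand for 7 of the 9 members (none for Ntrk3 and Sort1). The full CREB response element TGACGTCA was in 0 of the members' windows and in 1.79% of all 32851 windows. Its core, TGACG or CGTCA on the other strand (part of any full element), was in 1 of the 7 Bdnf windows and in no window of the other members, against 20.8% of all windows. That Bdnf window is shown because it is the only place among the members where the motif was found. It lies at chr2:109692186-109692485 on the + strand of GRCm38.p6, an older build than the one used for the counts. The capitals mark the core, which begins 35 bases before the annotated start, and a match is a description of the letters, not evidence of binding.
Bdnf, the third window in genomic order: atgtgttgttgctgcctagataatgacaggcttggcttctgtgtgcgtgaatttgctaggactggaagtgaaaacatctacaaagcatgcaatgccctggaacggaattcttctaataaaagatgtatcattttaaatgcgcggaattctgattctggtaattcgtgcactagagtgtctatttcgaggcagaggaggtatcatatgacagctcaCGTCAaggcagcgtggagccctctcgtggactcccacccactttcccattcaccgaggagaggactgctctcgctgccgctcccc

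Library totals ran from 16972620 to 20470546 expected counts. The members' own counts ran from 23 (Ngfr in SNL 3) to 13341 (Ntrk2 in CBD 1), so Ngfr and Ntf3, at most 240 and 100 counts, are the least precise. Values below are CPM, a gene's counts per 1000000 counts of its library after scaling by trimmed mean of M-values (TMM). Some libraries held transcripts of neighbouring regions. Summed CPM of 8 hypothalamic markers was 379 in CBD 1, 298 in SNL 1 and 65.8 in SNL 2, and at most 7.84 in the other 6 libraries. Summed CPM of 8 thalamus and habenula markers was 468 to 686 in CBD, 506 to 1412 in SNL and 317 to 426 in sham. Markers of hippocampal principal neurons varied too. The sum of 8 CA1 markers was 489 to 917 CPM in CBD, 499 to 780.1 in SNL and 759.6 to 1193 in sham, and that of 10 dentate granule cell markers 304.5 to 596 in CBD, 289 to 433 in SNL and 458 to 744 in sham. All 18 of these neuronal markers were detected in every library. In bulk tissue, fewer cells of a type and less RNA per cell cannot be told apart.

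The ligand genes were low to moderate in level and varied widely between libraries. Bdnf had 18.6, 29.6 and 34.9 CPM in CBD 1, 2 and 3, 21.95, 18.5 and 26.5 CPM in SNL 1, 2 and 3, and 30.1, 43.0 and 26.5 CPM in sham 1, 2 and 3. SNL libraries lay in the lower part of the range, and SNL 3 and sham 3 met at 26.5 CPM, so that SNL and sham just overlapped. The mean was 27.7 ± 8.34 CPM in CBD, 22.3 ± 4.01 in SNL and 33.2 ± 8.70 in sham (SD, n = 3 each). Ntf3 had 2.003, 3.51 and 4.69 CPM in CBD, 1.52, 2.37 and 3.56 in SNL, and 3.93, 5.06 and 2.35 in sham. Its 3 groups overlapped in every pairing, with a spread of 36.1% to 41.3% of the mean within a group. The order of the group means was sham, CBD, SNL for both ligands, and neighbours in that order differed by less than the larger SD of the pair.

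Among the receptor genes, Ntrk2 was the most abundant and the steadiest. It had 722, 578 and 582 CPM in CBD, 504, 569 and 483.5 in SNL, and 538, 504 and 568.5 in sham. All 3 CBD libraries lay above all SNL and all sham libraries, with CBD 1 far above the rest and CBD 2 and CBD 3 close to the highest SNL and sham values. Ntrk2 gives rise to full-length TrkB in neurons and to truncated forms that are abundant in astrocytes, and a table of genes does not separate them. Summed CPM of 8 astrocyte markers was 4442 in CBD 1, 5105 in CBD 2 and 5295 in CBD 3. The lower sum of CBD 1 came from Slc1a2, the main glutamate transporter of astrocytes, at 1949 CPM in CBD 1, 2693 in CBD 2 and 2992 in CBD 3. Of the other 7 markers, Aqp4, Slc1a3, Gja1 and Aldh1l1 were highest of the group in CBD 1, at 194, 534, 297.5 and 78.7 CPM. Gfap, Aldoc and S1pr1 were not, at 340, 915 and 134 CPM in CBD 1 against 358.5, 918 and 139 in CBD 2. The astrocyte sum was 4042 to 4551 CPM in SNL and 4683 to 5257 in sham. Over the 9 libraries, which share the scaling of each library, its Pearson r with Ntrk2 was 0.00868. Among the marker sums, Ntrk2 had its highest r with those of basal forebrain cholinergic neurons (0.707), choroid plexus (0.619) and interneurons (0.576). Its lowest was -0.523, with the sum of CA3 and mossy cell markers. The part of astrocyte or other tissue content in the Ntrk2 level was not tested.

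Ntrk3 was lowest in the SNL libraries. It had 173, 219 and 234 CPM in CBD, 159.9, 126 and 170.1 in SNL, and 207, 242 and 194 in sham. No SNL library reached the lowest CBD or sham value, whereas CBD and sham overlapped. Group means were 209 ± 31.6 CPM in CBD, 152 ± 23.4 in SNL and 214 ± 24.8 in sham (SD, n = 3 each). Over the 9 libraries, marker sums of myelin-forming and vessel cells, thalamus and habenula, interneurons and hypothalamus ran against it. Those of CA1, CA3 and astrocytes ran with it. Summed CPM of 8 oligodendrocyte and myelin markers was 8222 to 9630 in CBD, 10490 to 14870 in SNL and 8629 to 11720 in sham. That of 8 endothelial and pericyte markers was 480 to 503 in CBD, 506 to 656 in SNL and 373 to 434 in sham. The vessel sum was higher in all CBD than in all sham libraries, whereas Ntrk3 overlapped there. Over the 9 libraries, which share the scaling of each library, Ntrk3 had a Pearson r of -0.865 with the myelin sum and -0.796 with the vessel sum. It was -0.732 with the thalamus and habenula sum, -0.69 with the interneuron sum and -0.633 with the hypothalamic sum. Its highest positive values were 0.84 with the sum of CA3 and mossy cell markers, 0.825 with the astrocyte sum and 0.802 with the CA1 sum. Chgb made up the largest part of the CA3 sum. It had 306 CPM in SNL 2, where Ntrk3 was lowest, and 669 in sham 2, where Ntrk3 was highest. Bok, Iyd, Grik4 and Cpne4 of that list were also higher in sham 2 than in SNL 2, whereas Coch, Calb2 and Elavl4 were lower. The part of these cell types and regions in the Ntrk3 level was not tested.

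Ngfr was scarce and its CBD mean rested on a single library. It had 13.0, 2.58 and 1.62 CPM in CBD 1, 2 and 3, 2.22, 4.26 and 1.22 CPM in SNL, and 2.91, 1.57 and 2.85 CPM in sham. CBD 1 was far above the next highest library, SNL 2, while CBD 2 and CBD 3 lay within the range of the other groups. In the adult brain the strongest neuronal expression of Ngfr is in cholinergic neurons of the basal forebrain, whose axons reach the hippocampus but whose cell bodies lie outside it. All 6 markers of those neurons had their highest value in CBD 1, by unequal margins. Lhx8, a homeobox gene of the cholinergic lineage, stood at 3.57 CPM in CBD 1, at most at 0.102 CPM in the other 8 libraries, and at 0 in 5 of those. Gbx1, another homeobox gene, stood at 3.68 CPM in CBD 1 and at most at 0.409 in the others. Slc5a7, the choline transporter, stood at 10.9 CPM in CBD 1 against at most 9.28 elsewhere, and Slc18a3, the vesicular acetylcholine transporter, at 2.76 against at most 2.45. The sum of all 6 markers of this list was 30.05 CPM in CBD 1 and 9.27 to 9.91 CPM in the other CBD libraries, 5.26 to 14.5 in SNL and 1.21 to 15.5 in sham. Outside CBD 1 the sum followed Ngfr in part. It was next highest in sham 3, at 15.5, and 9.52 in SNL 2, the library second in Ngfr. SNL 3 and sham 2, the lowest in Ngfr, also had the lowest sums, at 5.26 and 1.21. Over the 9 libraries, which share the scaling of each library, the Pearson r of the sum with Ngfr was 0.708. CBD 1 was also the library with the highest hypothalamic sum. The part of such tissue in the Ngfr level was not tested.

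Sort1, whose product moves between the Golgi, endosomes and the cell surface, had 343.5, 524 and 570.1 CPM in CBD, 326.5, 407.5 and 429.5 in SNL, and 579.7, 619 and 473 in sham. Every SNL library was below every sham library, while CBD spanned most of the range, with CBD 1 near the SNL values and CBD 2 and CBD 3 within the sham range. The mean was 479 ± 120 CPM in CBD, 388 ± 54.2 in SNL and 557 ± 75.6 in sham (SD, n = 3 each).

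The CREB genes differed from each other in how they varied. Crtc1 had 159, 210.3 and 220.3 CPM in CBD, 148, 176 and 187.5 in SNL, and 333, 319.5 and 213 in sham. SNL lay wholly below sham, and sham 3 stood well below the other sham libraries, at a level that CBD 3 exceeded. Creb1 had 54.6, 49.8 and 59.7 CPM in CBD, 48.7, 46.9 and 46.7 in SNL, and 37.0, 47.4 and 49.6 in sham. CBD libraries were the highest throughout, although CBD 2 exceeded sham 3 by less than 1 CPM. Crebbp was nearly level, with 77.4, 73.9 and 84.5 CPM in CBD, 75.6, 84.3 and 80.7 in SNL, and 96.6, 92.2 and 76.6 in sham.

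**Figure D1:**
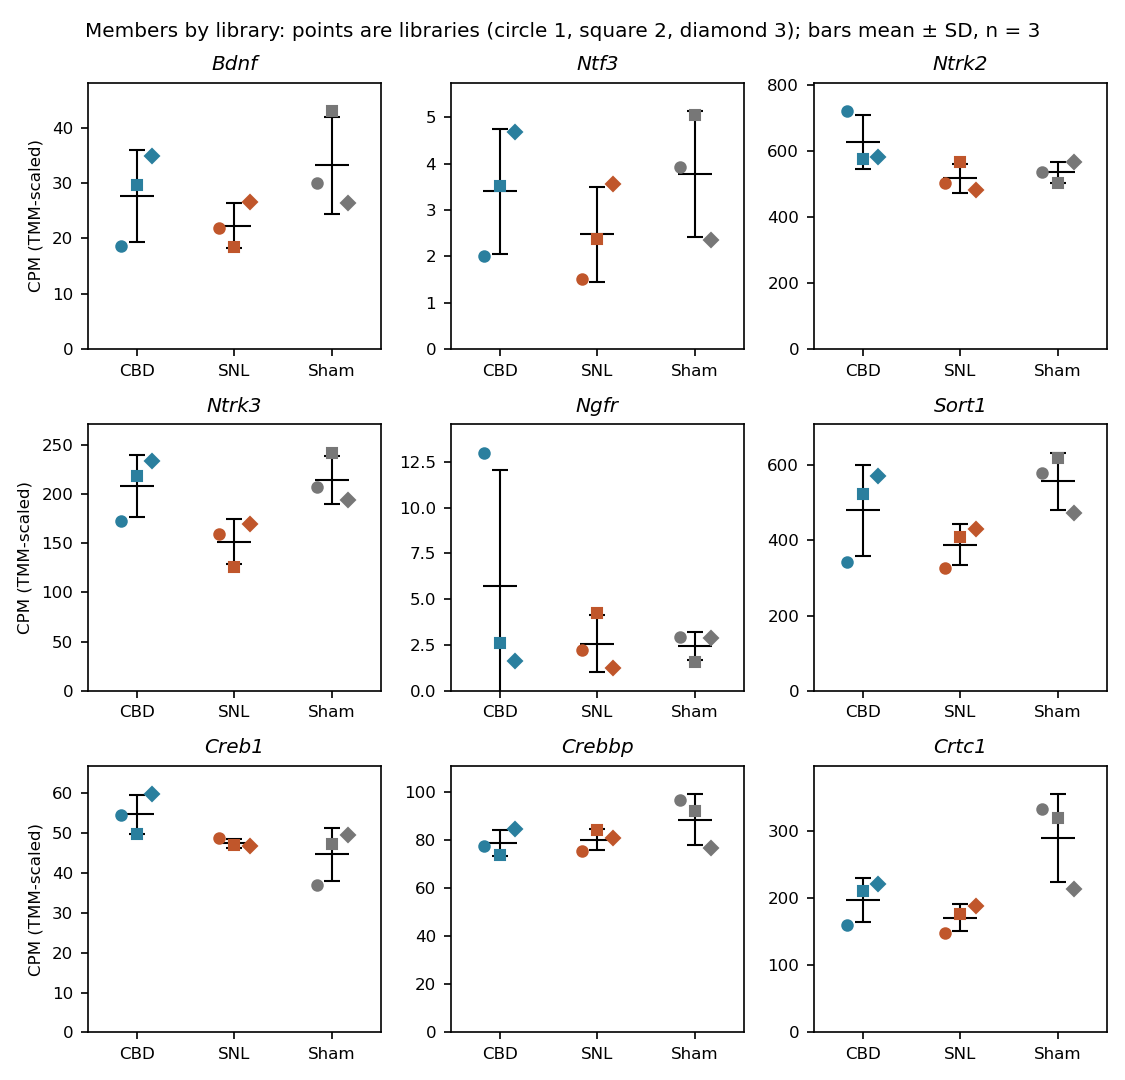
Level of each of the 9 members in each library, in TMM-scaled CPM on axes that start at 0, by group. Points are libraries (circle 1, square 2, diamond 3) and bars the mean ± SD of 3 libraries. The lower arm of the Ngfr bar in CBD passes below 0 and is not drawn in full. Ntrk3, Sort1 and Crtc1 are lower in all 3 SNL libraries than in all 3 sham libraries, and Ngfr at 13.0 CPM in CBD 1 stands alone.

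Levels can be compared between genes only per length, and the length depends on the transcript chosen. Per kilobase of the longest coding transcript in GENCODE M21, means over the 9 libraries were 69.4 CPM for Sort1, 64.2 for Ntrk2 and 38.5 for Crtc1. The others were between 1.04 (Ngfr) and 9.72 (Ntrk3), with Bdnf at 6.50 and Ntf3 at 2.17. Per kilobase of the median coding transcript Ntrk2 led at 184 CPM, with Ntrk3 at 70.3 and Sort1 at 69.6. Ngfr and Ntf3 were the lowest under both lengths. Antisense genes that overlap exons of Bdnf (Gm45346) and Sort1 (Gm12523) had at most 4 and 6 counts in any library.

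High and low libraries were shared by several members, and this pattern cut across the groups. Crtc1, Sort1, Ntf3 and Bdnf each had their highest value in sham 1 or sham 2, and their lowest in SNL 1 or SNL 2. CBD 1 was the lowest CBD library for all 4 and for Ntrk3. The CA1 marker sum followed a like course, at 1193 and 1191 CPM in sham 1 and sham 2, 499 and 531 in SNL 1 and SNL 2, and 489 in CBD 1. Over the 9 libraries its Pearson r was 0.954 with Sort1, 0.942 with Crtc1, 0.909 with Bdnf and 0.895 with Ntf3. Crebbp shared its high values in sham 1 and sham 2, at 96.6 and 92.15 CPM (Pearson r 0.801 with Crtc1 over the 9 libraries), but was lowest in CBD 2, at 73.9 CPM. Ntrk2 and Ngfr had their highest value in CBD 1, and Creb1 in CBD 3. The part of the neuronal marker content in the members' levels was not tested.

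**Figure D2:**
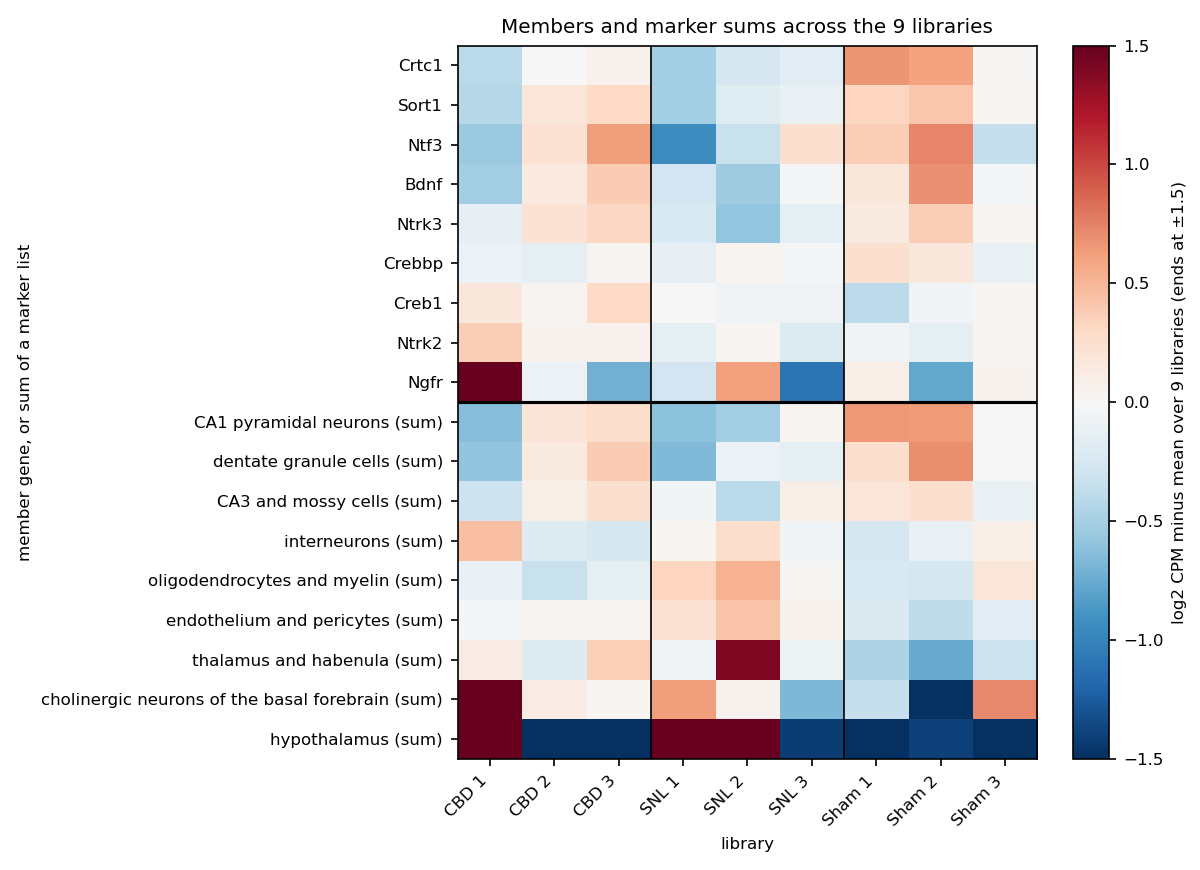
Members (upper block) and summed marker lists (lower block) in each of the 9 libraries, as log2 CPM minus the row's mean over the 9 libraries, with red above and blue below the mean and colours ending at ±1.5. Crtc1, Sort1, Ntf3, Bdnf and Ntrk3 are blue in CBD 1, SNL 1 and SNL 2, as are the CA1 and dentate sums, and Ngfr and the cholinergic sum have their darkest red cell in CBD 1.

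The search for like patterns covered the 12458 genes averaging 5 CPM or more. Those whose log2 CPM followed each member most closely over the 9 libraries were listed as a description, since the points share libraries and depth. The genes nearest to Bdnf were Angel2 (Pearson r 0.994) and Mmd (0.991), and those nearest to Ntf3 were Bzw2 (0.984) and Arrdc4 (0.973). Sort1 was closest to Nr3c2, the mineralocorticoid receptor gene (0.991), and Dock9 (0.990), and Crtc1 to Agap2 (0.991) and the T-type calcium channel gene Cacna1h (0.990). Ntrk3 was closest to Mctp1 (0.979) and the ceramide synthase gene Cers6 (0.976). Ntrk2 was closest to Herc6 (0.966) and Prrx1 (0.938), and Ngfr to Prrx1 (0.968) and Zfp41 (0.939). Creb1 was closest to Trp53inp1 (0.980) and to Mettl14 (0.976), a subunit of the RNA methyltransferase for N6-methyladenosine, and Crebbp to Sec61a1 (0.950) and Nfrkb (0.946).

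The comparison of SNL with sham sets ligated mice given solvent beside sham mice given solvent. These libraries also differed in tissue content. The thalamus and habenula sum was 506 to 1412 CPM in SNL and 317 to 426 in sham, and the vessel sum 506 to 656 in SNL and 373 to 434 in sham. The part of tissue content in the differences between these groups was not tested. Ligands, the TrkC gene, sortilin and the CREB coactivator Crtc1 were lower in SNL, while the TrkB gene, Creb1 and Crebbp were close to level. Crtc1 averaged 171 ± 20.3 CPM in SNL and 289 ± 65.5 CPM in sham (SD, n = 3 each), a log2 fold change of -0.76 (SE 0.19). The change was -0.60 (SE 0.41) for Ntf3, -0.57 (SE 0.25) for Bdnf, -0.52 (SE 0.19) for Sort1 and -0.50 (SE 0.15) for Ntrk3. None of the 9 passed an adjusted p of 0.05 in edgeR's quasi-likelihood test, where the smallest among them was 0.220, for Crtc1.

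In counts, 7 of the 9 members were lower in SNL and 2 higher, where 48.4% of all genes tested were lower. The median log2 fold change was -0.50, against 0.01 for all genes. At an unadjusted p under 0.05 there were 4 members, Bdnf, Ntrk3, Sort1 and Crtc1, all lower, where 7.96% of all genes were lower at that p and 0% of genes passed after adjustment. For Ntrk3, Sort1 and Crtc1 the SNL libraries lay wholly below sham, as they did for 9.81% of all genes. The DESeq2 Wald test called 1 member, Crtc1 (log2 fold change -0.75, adjusted p 0.0137). It called 2.58% of the 14121 genes to which it gave an adjusted p. By limma voom 0 members were called, against 0.00557% of all genes tested. With the 3 libraries that held hypothalamic transcripts left out, which leaves SNL 3 as the only SNL library, 8 members were lower and 1 higher, at a median of -0.32, a description of a single SNL library.

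The 95% intervals show what this design could resolve. For Ntrk2 the log2 fold change in SNL was -0.05 with an interval of -0.32 to 0.22, for Creb1 0.09 (-0.19 to 0.36) and for Crebbp -0.14 (-0.39 to 0.10). These are the narrowest of the 9. The interval of Ngfr ran from -1.53 to 1.68 around 0.07, so changes of more than 2-fold either way were not resolved. The direction for Ngfr turned without SNL 2 (-0.51) or without sham 2 (-0.16), and that for Creb1 without sham 1 (-0.03).

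**Figure D3:**
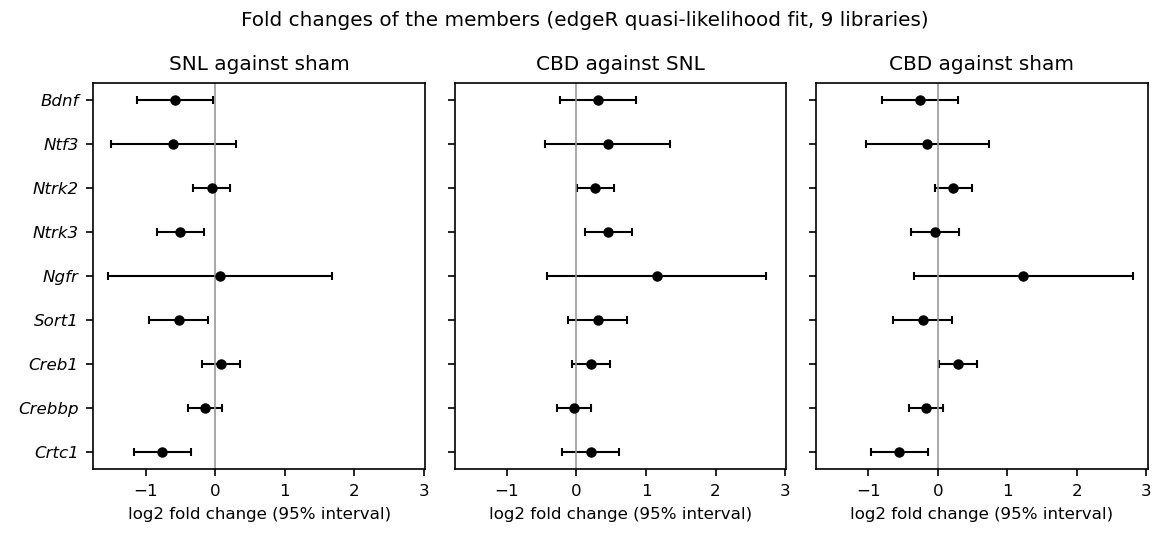
Log2 fold change of each member in the 3 comparisons (points) with 95% intervals (bars), from the edgeR fit over 9 libraries. A positive value is higher in the group named first. Crtc1 at -0.76 is the lowest in SNL against sham, and Ngfr has the widest interval in each panel.

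Lists of other pathway genes had medians nearer 0 in SNL against sham. Over all genes, 5.83% were higher and 7.96% lower at an unadjusted p under 0.05. Of 23 genes tested for ligands, receptors and processing of neurotrophins, 8 were higher and 15 lower (median -0.09), and 4 had an unadjusted p under 0.05, all lower. Sorl1, a sorting receptor of sortilin's family, averaged 239 ± 26.9 CPM in SNL and 339.5 ± 32.9 in sham (log2 fold change -0.51, SE 0.18), and Lingo1, a partner of the Nogo receptor, 130.3 ± 22.2 in SNL and 193 ± 49.4 in sham (-0.56, SE 0.20). Among the higher genes, the smallest p-values were those of Sorcs1 (0.51, SE 0.27) and Bex3 (0.29, SE 0.18). Of 40 genes downstream of Trk receptors, 18 were higher and 22 lower (median -0.04), with 6 lower and 0 higher at that p. They included the kinase gene Map2k1 (192 ± 32.1 CPM in SNL, 271 ± 37.2 in sham, log2 fold change -0.50), while Gab1 (0.36) and Rps6ka3 (0.24) were the nearest to the threshold among those higher.

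The CREB family, its coactivators and kinases gave 11 of 31 higher and 20 lower in SNL (median -0.15), with 4 higher and 11 lower at an unadjusted p under 0.05. Camkk1, a kinase upstream of CaM kinases, averaged 143 ± 12.8 CPM in SNL and 219 ± 32.4 in sham (-0.62, SE 0.15), and Rps6ka4, which encodes a CREB kinase, 30.3 ± 0.817 in SNL and 40.4 ± 5.69 in sham (-0.41). Camk1 (0.49) and Creb3 (0.22), a membrane-bound relative of CREB, were higher. Of 26 activity-regulated genes, targets of CREB or BDNF signalling, 9 were higher and 17 lower (median -0.13), with 2 higher and 7 lower at that p. Egr4 averaged 6.10 ± 0.502 CPM in SNL and 13.5 ± 4.95 in sham (-1.15, SE 0.28), and Per1, a clock gene, had a change of -0.59. Dusp1 (0.62) and Cartpt (1.99), a peptide gene abundant in the hypothalamus, were higher. No gene of the 4 lists passed edgeR's adjusted p. DESeq2 called Camkk1 and Egr4, where it called 2.58% of the genes to which it gave an adjusted p.

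The comparison of CBD with SNL sets ligated mice given cannabidiol beside ligated mice given solvent. The myelin sum, at 8222 to 9630 CPM in CBD and 10490 to 14870 in SNL, also differed, and its part in the changes was not tested. All members but Crebbp were higher in CBD on average. Ntrk3 averaged 209 ± 31.6 CPM in CBD and 152 ± 23.4 in SNL (SD, n = 3 each), a log2 fold change of 0.46 (SE 0.15), and Ntrk2 627 ± 82.3 CPM in CBD and 519 ± 44.4 in SNL, a change of 0.27 (SE 0.12). Bdnf differed by 0.31 (SE 0.25), Ntf3 by 0.45 (SE 0.41), Sort1 by 0.31 (SE 0.19), and Crtc1 and Creb1 by 0.21 each (SE 0.19 and 0.12). By edgeR 0 of the 9 passed, with adjusted p from 0.309 to 0.928, as did 0% of all genes.

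In counts, 8 of 9 members were higher in CBD than in SNL, where 49.9% of all genes tested were higher, and the median was 0.31 (0.00 over all genes). At an unadjusted p under 0.05 there were 2, Ntrk2 and Ntrk3, both higher, where 6.5% of all genes were. CBD libraries lay wholly above SNL for Ntrk2, Ntrk3 and Creb1, as they did for 9.18% of all genes. DESeq2 called 0 of the 7 members to which it gave an adjusted p, and limma voom with sample weights called 1, Ntrk3 (log2 fold change 0.48, adjusted p 0.0402). DESeq2 called 1.58% of the 9951 genes to which it gave an adjusted p, and limma voom 6.3% of all 17967 genes tested. This comparison and that of SNL with sham share the 3 SNL libraries.

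CBD 1 set several of these values. Without it Ngfr was -0.30 on the log2 scale, against 1.16 (SE 0.71) with it, and Ntrk2 was 0.15. Over CBD 2 and CBD 3 the median was 0.33, with 7 members higher and 2 lower. Leaving out CBD 3 instead gave a median of 0.15. The fit that omits SNL 1, SNL 2 and CBD 1, which held hypothalamic transcripts, sets CBD 2 and CBD 3 beside SNL 3 alone. It had 8 members higher and 1 lower, at a median of 0.26, a description of a single SNL library. With offsets for transcript GC content and length Bdnf was 0.06 and Ntrk3 0.46.

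In CBD against SNL, 6.5% of all genes were higher and 7.2% lower at an unadjusted p under 0.05. Of the 23 ligand, receptor and processing genes 13 were higher and 10 lower (median 0.06), with 3 higher and 0 lower at an unadjusted p under 0.05. Kidins220, a scaffold of Trk receptors, averaged 424 ± 14.1 CPM in CBD and 342 ± 9.16 in SNL (0.31, SE 0.09). DESeq2 called it (adjusted p 0.0281), among 1.58% of the genes given an adjusted p. Sorcs3, another member of the sortilin family, had 41.9 ± 1.88 CPM in CBD and 35.05 ± 1.325 in SNL (0.26), while the protease gene Pcsk7 (-0.22) and Bex3 (-0.33) were lower. Of 40 Trk signalling genes 22 were higher and 18 lower (median 0.03), with 7 higher and 1 lower at that p. Braf, the kinase that activates MEK, averaged 152 ± 24.0 CPM in CBD and 112.5 ± 0.472 in SNL (0.43), and the Trk adaptor gene Frs2 had a change of 0.37. Map2k2 (-0.38) and Sh2b1 (-0.32) were lower.

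Of 31 CREB family and kinase genes 21 were higher and 10 lower in CBD (median 0.13), with 2 higher and 3 lower at an unadjusted p under 0.05. Ep300, the closest relative of Crebbp, averaged 73.6 ± 1.88 CPM in CBD and 58.9 ± 9.68 in SNL (0.32). Crebbp itself was at -0.03 with a 95% interval of -0.27 to 0.22. Hdac5 (-0.45) and Atf4 (-0.31) were lower. The activity-regulated genes leaned the other way from the members, 11 higher and 15 lower (median -0.22), with 0 higher and 3 lower at that p. Fos averaged 5.49 ± 1.95 CPM in CBD and 11.7 ± 6.40 in SNL (-1.09, SE 0.41) and Vgf, a neuropeptide precursor induced by neurotrophins, 130.4 ± 37.8 in CBD and 179 ± 12.3 in SNL (-0.46). Homer1 (0.39) and Ppargc1a (0.31) were higher.

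**Figure D4:**
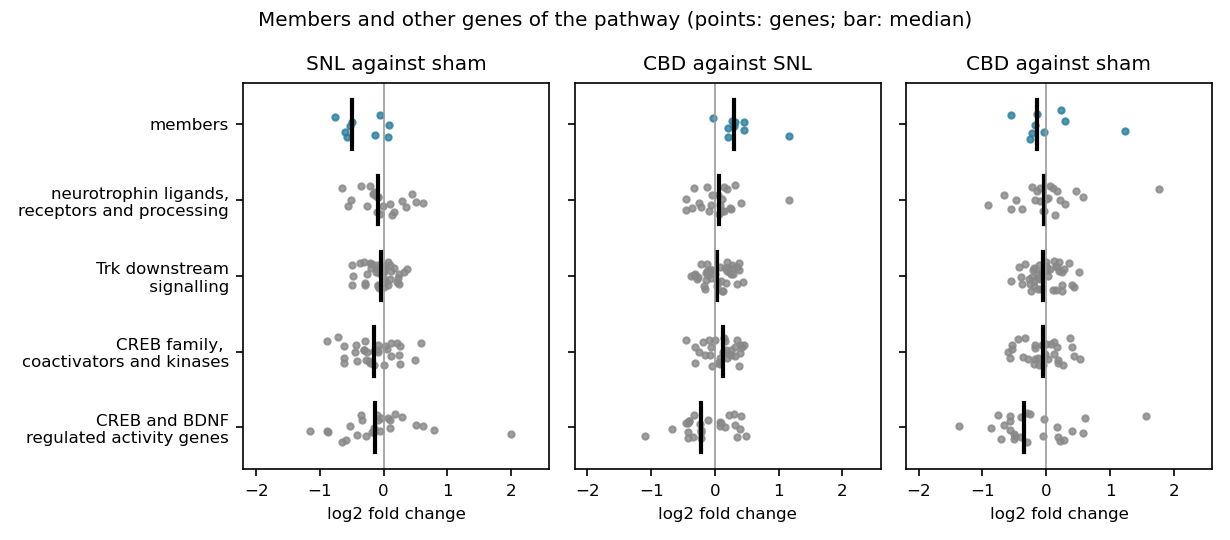
Log2 fold changes of the 9 members and of the other genes of 4 pathway lists in each comparison. Points are genes, black bars list medians, and a positive value is higher in the group named first. The members' medians are -0.50, 0.31 and -0.15 from left to right, and the activity-regulated genes have medians of -0.13, -0.22 and -0.35.

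The third comparison sets ligated mice given cannabidiol beside sham. The lowest fold change was again that of Crtc1, at 197 ± 32.7 CPM in CBD and 289 ± 65.5 in sham (SD, n = 3 each), a log2 fold change of -0.55 (SE 0.19, edgeR adjusted p 0.223). Creb1, whose product Crtc1 binds, was higher, at 54.7 ± 4.96 CPM in CBD and 44.7 ± 6.71 in sham (0.29, SE 0.12, edgeR adjusted p 0.284). Ntrk3 was close to level (-0.04, 95% interval -0.38 to 0.30). The changes were -0.26 (SE 0.25) for Bdnf, -0.15 (SE 0.40) for Ntf3, -0.22 (SE 0.19) for Sort1, -0.17 (SE 0.11) for Crebbp, 0.22 (SE 0.12) for Ntrk2 and 1.23 (SE 0.71) for Ngfr.

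Of the 9 members 3 were higher and 6 lower in CBD than in sham, where 49.9% of all genes were lower, with a median of -0.15 against 0.00 over all genes. By edgeR 0 passed after adjustment (0% of all genes), and at an unadjusted p under 0.05 there were Creb1, higher as 7.41% of all genes were, and Crtc1, lower as 8.87% were. CBD libraries lay wholly above sham for Ntrk2 and Creb1, as for 10.6% of all genes. DESeq2 called 0 of 7 members given an adjusted p and 3.39% of the 11338 genes given one. By limma voom these were 0 of 9 members and 5.85% of all genes tested. The median was -0.03 without CBD 1 and 0.06 without sham 2, where 5 members were higher and 4 lower. Crtc1 was -0.30 with offsets for GC content and length, and Ngfr was -0.21 without CBD 1. Without the 3 libraries with hypothalamic transcripts 4 members were higher and 5 lower (median -0.02).

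Against sham, 10 of the 23 ligand, receptor and processing genes were higher in CBD and 13 lower (median -0.04), with 2 higher and 4 lower at an unadjusted p under 0.05. Rtn4r, the Nogo receptor, averaged 26.8 ± 6.09 CPM in CBD and 50.3 ± 16.4 in sham (-0.91, SE 0.27), and Pcsk7 22.1 ± 0.886 in CBD and 28.7 ± 2.23 in sham (-0.38), while the protease genes Adam10 (0.29) and Pcsk1 (0.58) were higher. Of 40 Trk signalling genes 19 were higher and 21 lower (median -0.05), with 4 higher and 6 lower at that p. The regulatory subunit gene Pik3r1 (0.36) and Rps6ka3 (0.43), a CREB kinase gene, were higher, and Map2k2 (-0.38) and Akt2 (-0.39) lower. In the CREB list 12 of 31 were higher and 19 lower (median -0.05), with 3 higher and 7 lower at that p. Rps6ka4 averaged 26.7 ± 2.98 CPM in CBD and 40.4 ± 5.69 in sham (-0.59) and Camkk1 150.5 ± 25.7 in CBD and 219 ± 32.4 in sham (-0.54). Atf1, a close relative of Creb1, was higher (11.4 ± 0.689 CPM in CBD, 8.63 ± 0.595 in sham, 0.40), as was Prkacb, a catalytic subunit of protein kinase A (0.43).

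The activity-regulated genes had the lowest median of the 4 lists in CBD against sham, with 8 of 26 higher and 18 lower, a median of -0.35, and 1 higher and 8 lower at an unadjusted p under 0.05. Junb, a member of the AP-1 family, averaged 16.4 ± 1.88 CPM in CBD and 30.1 ± 6.71 in sham (-0.87, SE 0.17), and Egr4 5.255 ± 1.19 in CBD and 13.5 ± 4.95 in sham (-1.36, SE 0.28). Both had an edgeR adjusted p of 0.213. Ppargc1a (0.40) and Scg2 (0.58) were higher. DESeq2 called Junb, Egr4 and Per1 of this list, Lingo1 and Rtn4r of the first, Map2k2 and Pik3r1 of the second, and Camkk1 and Rps6ka4 of the third. Of the genes given an adjusted p it called 3.39%.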

How the data were processed

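The deposited table gives expected counts per gene for 9 hippocampal libraries. Per the submitters' processing notes, RSEM and build GRCm39 were used. Versions, aligner, annotation and read filters are not given in the sources at hand. The expected counts were rounded to whole numbers, genes were kept by filterByExpr (17967), and libraries were scaled by TMM. Each comparison was tested with edgeR 4.0.16 (R 4.3.3) in 1 quasi-likelihood fit with 6 residual degrees of freedom, adjusted by Benjamini-Hochberg over all genes tested, with a threshold of 0.05. The SE of a log2 fold change was taken as its size over the root of its F statistic. DESeq2 1.42.0 and limma 3.58.1 were alternatives.

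Members, pathway lists and marker lists were chosen with earlier results of these data known, and support nothing by themselves. Named pathway genes are, per list and comparison, up to 2 in each direction with the smallest p and a mean of at least 1 CPM, a few of which are not reported here. Named like-patterned genes are the 2 with the highest Pearson r per member. Promoter windows are RefSeq's on GRCm38.p6, and transcript lengths and GC content, had by 98.2% of tested genes, are from GENCODE M21. No pair of libraries of a group agreed within sampling noise (chi-square per gene at least 6.44). Leaving out the 3 libraries with hypothalamic transcripts was chosen after seeing the data.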

Additional observations from a re-analysis of the deposited data

How the results depend on the processing

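Over 18 alternatives to each member's fold change, 466 of 486 values kept their direction and their side of the threshold. The values that passed were Crtc1 in SNL against sham, with no filter on low counts (-0.75, adjusted p 0.0292) and by DESeq2 (-0.75, adjusted p 0.0137), and Ntrk3 in CBD against SNL by limma voom (0.48, adjusted p 0.0402). Directions turned in 17 values, all with an adjusted p of at least 0.74. For Ngfr in SNL against sham these were limma voom (-0.073), the fit without the 3 libraries with hypothalamic transcripts (-0.99), and some of the fits without 1 library (-0.51 to 0.41). Without those 3 libraries the CBD against sham values were -0.21 for Ngfr, 0.13 for Ntf3 and 0.086 for Ntrk3, and Ntrk3 was 0.015 after GC and length offsets. Without 1 library at a time the range was -0.032 to 0.17 for Creb1 in SNL against sham, -0.30 to 1.74 for Ngfr and -0.085 to 0.013 for Crebbp in CBD against SNL, and -0.21 to 1.67 for Ngfr, -0.45 to 0.11 for Ntf3 and -0.13 to 0.074 for Ntrk3 in CBD against sham. The cause was not tested.

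Over all genes, edgeR called 0 in each comparison. In SNL against sham the count was 253 with no filter on low counts, 365 by DESeq2, 1 by limma voom, 0 to 8 without 1 library and 1 without the 3 libraries. In CBD against SNL it was 1, 157 and 1132 by the first 3 of these, 0 to 2 without 1 library and 2 without the 3 libraries. In CBD against sham it was 56, 384 and 1051, with 1 in the fit on the 6 libraries compared, 0 to 17 without 1 library and 20 without the 3 libraries, a fit in which the lone SNL library is assumed to vary like the other groups. With replicate number as a replicate block the count was 0 in each comparison, and Crtc1 in SNL against sham was -0.76 (edgeR adjusted p 0.395). Deviations of same-numbered libraries from their group means had correlations from -0.27 to 0.19, and not every library was closest to its own number. With 3 libraries in a group, such correlations cannot decide whether a number marks a shared litter, batch or day. The labels do not say that it does. Ngfr and Ntf3 had the fewest counts, 23 to 240 and 26 to 100, and so the largest counting error.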
